A study of Mus musculus with 12 samples.

Results

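The nuclear subunits of oxidative phosphorylation are the proteins of the 5 mitochondrial respiratory complexes that are encoded in the nucleus, together with cytochrome c. The genes were taken by symbol: protein-coding genes whose symbol begins with Nduf (assembly factors named Ndufaf left out), Uqcr, Cox4i, Cox5, Cox6, Cox7, Cox8 or Atp5, and the genes Sdha, Sdhb, Sdhc, Sdhd, Cyc1 and Cycs. This gave 87 of the 48795 gene IDs in the deposited count table. Complex I has 36 of them, complex II 4, complex III 9, complex IV 20 (with Ndufa4 and Ndufa4l2, which carry complex I names) and complex V 17, and cytochrome c is 1 gene. Atp5s is coupling factor B, which the Atp5 prefix takes in although it is not a structural subunit.

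RNA was sequenced from primary cultures of dorsal root ganglion (DRG), which hold sensory neurons with glia and connective tissue cells, of wild-type C57/Bl6 mice. An antisense oligonucleotide (ASO) is a synthetic nucleic acid strand designed to base-pair with its target RNA. Of the 3 groups, one received a mix of ASOs against GI-SINE RNA (transcripts of B2 short interspersed repeats) at 50 nM, another received a control ASO at the same 50 nM, and the last was untransfected, with 4 libraries in each. Each of 4 mice supplied 1 culture that was split over all 3 conditions, so mouse was a block in the model. No group was transfected without an ASO, and the GI-SINE RNA itself was not measured here.

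In the respiratory chain, complex I and complex II pass electrons from NADH and succinate to ubiquinone, complex III passes them to cytochrome c, and complex IV passes them to oxygen. Complexes I, III and IV pump protons, and complex V, the ATP synthase, uses the gradient to make ATP. Mitochondrial DNA encodes a few core subunits of all but complex II, and the nucleus encodes the rest, whose genes share regulators such as NRF1, GABP and YY1. Sensory neurons carry long axons and rely on this machinery for ATP.

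Libraries held 14864622 to 22704267 counts, and the subunit genes took 0.498% to 0.627% of them. Pan-neuronal markers were all detected, with a summed level of 7457 to 12630 CPM (counts scaled to the library's total) over the libraries, whereas 2 of 15 striated muscle markers were abundant enough to test. The mix library of mouse 4 lay apart from the other mix libraries, with a summed subunit level of 5834 CPM against 6383 to 6682 CPM. Mouse 4 differed in the other conditions too, with the lowest pan-neuronal sum in every group (7457 CPM untransfected, 8448 control ASO, 9830 mix). Its summed endothelial markers stood at 193.6, 168.7 and 175.7 CPM in these groups, against 42.12 to 67.84 CPM in the other mice. Results are therefore given with and without mouse 4 where it moves them. Cultures hold several cell types, and in such bulk RNA fewer cells of a type and less RNA per cell cannot be told apart.

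In untransfected cultures the subunit genes spanned a wide range of levels per length, given as RPKM, the CPM per kilobase of exon (mean ± SD over 4 libraries). Atp5b, the catalytic beta subunit of the ATP synthase, was the highest at 186.5 ± 8.98 RPKM. Cox6a1 followed at 174 ± 6.31 RPKM and Cox8a at 159 ± 8.28 RPKM, both small nuclear subunits of complex IV, and the Atp5b and Cox6a1 levels were close relative to their SDs. The lowest of the tested genes was Cox6b2, a complex IV isoform best known from testis, at 0.337 ± 0.198 RPKM. Cycs, which encodes somatic cytochrome c, stood low among the chain's genes at 1.36 ± 0.132 RPKM. Its merged exons are 3404 bases long, and 23 subunit genes, Cycs among them, have at least 1 annotated pseudogene copy with 95% identity or more over 200 bases or more. Reads of such genes could be lost or shared with the copy, so their levels are uncertain. When the longest transcript was used as the length in place of the merged exons, Atp5b stood at 412.4 RPKM. Cox4i1 then stood at 204.3, Cox6a1 at 196.7 and Cox8a at 178.5 RPKM, so Cox6a1 was neither close to Atp5b nor next after it. Across all subunit genes the levels kept much the same order (rank correlation 0.938 across genes, which are not independent replicates).

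For complex IV, the isoforms known from most tissues were the abundant ones in these cultures. Cox4i1 stood at 100.8 ± 2.65 RPKM and Cox4i2, an isoform known from lung, at 0.601 ± 0.214 RPKM. Cox6a1 exceeded the heart and muscle isoform Cox6a2, at 1.11 ± 0.432 RPKM, and Cox6b1 stood at 141 ± 10.7 RPKM. Cox7a2 was at 47.0 ± 2.32 RPKM, and its muscle counterpart Cox7a1 at 0.409 ± 0.279 RPKM. Cox8a had no detected counterpart: Cox8b and Cox8c had 0 counts in all 12 libraries, which allows up to 0.132 to 0.202 CPM per library (3 counts, counting error only). Among the 3 genes that encode the c ring subunit of complex V, Atp5g3 was the highest at 51.3 ± 3.47 RPKM, followed by Atp5g1 at 6.48 ± 0.723 RPKM and Atp5g2 at 0.625 ± 0.186 RPKM. The filter on low counts left 82 of the 87 genes to test. Besides Cox8b and Cox8c it removed Cox7a1 (95 counts in all libraries together, 48 of them in the mix group), Ndufa4l2 (71 counts) and Cox7b2 (2 counts).

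With the GI-SINE ASO mix, most nuclear subunit genes were higher than with the control ASO, a comparison that asks what the mix changed beyond transfection with an ASO. Of the 82 tested, 61 rose and 0 fell at an adjusted p under 0.05 in edgeR's quasi-likelihood test over all genes. The background was high: 27.3% of all 16831 tested genes were called higher and 28.8% lower. The median log2 fold change was 0.32 for the subunit genes and -0.03 for all tested genes. Within mice 1 to 4 the median log2 difference of the subunit genes was 0.42, 0.27, 0.35 and 0.18. In 52 of the 82 genes all 4 mix libraries lay above all 4 control ASO libraries, against 19.4% of all genes, and 62 were higher in all 4 mice, against 29.4% of all genes. Without mouse 4, 64 of 83 tested genes were called higher and the median was 0.37.

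**Figure D1:**
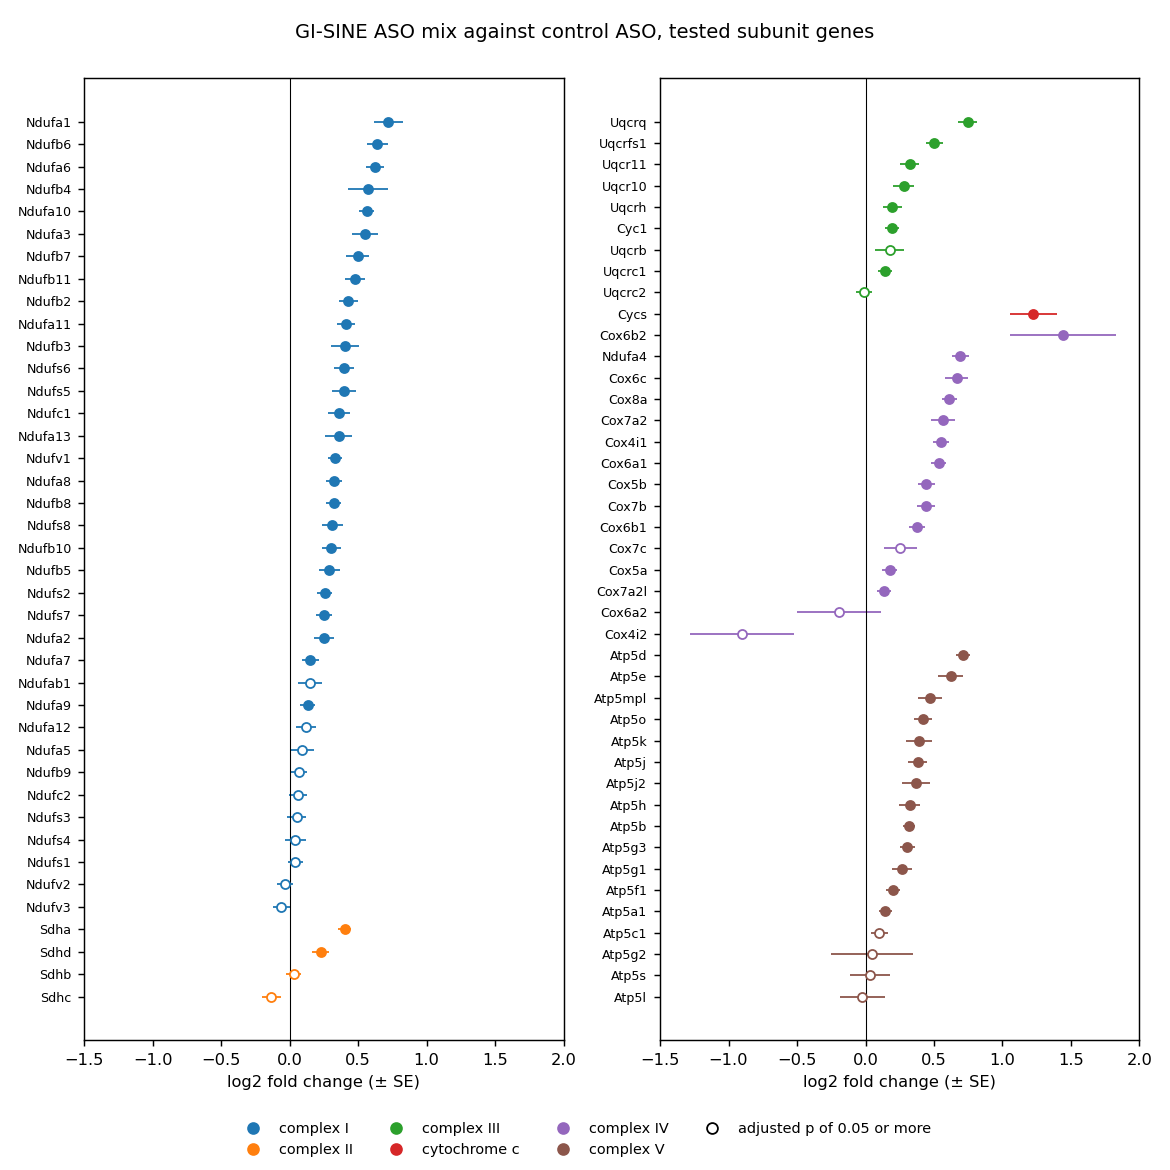
Log2 fold change (x axis, bars are the standard error) of each tested subunit gene with the GI-SINE ASO mix against the control ASO, ordered by complex and size; filled points passed an adjusted p of 0.05 in edgeR. Of the 82 genes, 61 are filled and to the right of 0, and no filled point lies to the left.

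The subunit genes were shorter than most genes, with a median merged exon length of 1696 bases against 4025 bases for all tested genes. Across all tested genes the log2 fold change fell with exon length (Spearman correlation -0.25, a description across genes that share libraries), and across the subunit genes the correlation was -0.20. When each library's trend in exon length and GC content was removed, 45 subunit genes were called higher and 2 lower (Cox4i2 and Ndufb9), with a median log2 fold change of 0.18 against -0.02 for all genes. The shorter 41 and the longer 41 subunit genes had medians of 0.36 and 0.26 as scaled, and 0.13 and 0.22 after the trend was removed. Library composition mattered as well: scaled by library size only, 44 were called higher and 4 lower. The medians of subunit genes and all genes both shifted, to 0.20 and -0.15. Their distance was 0.35 under either scaling, but a change of scaling shifts all genes about equally, so this distance could hardly change. Of the 15 pan-neuronal markers, 8 were called higher and 2 lower, with a median log2 fold change of 0.26. Without mouse 4 the counts were 8 and 5, and scaled by library size only 7 and 5 with a median of 0.13. Their summed level was 8448 to 10660 CPM in the control ASO group and 9830 to 12630 CPM in the mix group, and within mice it was 1.16 to 1.20 times as high with the mix. Their part in the rise of the subunit genes was not tested. Of 13 Schwann cell markers 3 were called higher and 7 lower, of 10 fibroblast markers 1 and 5, and of 10 satellite glia markers 2 and 5. Within mice the ratio of the summed level with the mix to that with the control ASO was 1.14 to 1.27 for the Schwann cell list and 1.03 to 1.23 for the satellite glia list, above 1 in all 4 mice, and 0.97 to 1.40 for the fibroblast list. Macrophage markers were scarce, with 2 of 10 called higher, none lower and a median log2 fold change of -0.31. Their summed level was 49.0 to 55.9 CPM with the mix against 23.8 to 35.5 CPM with the control ASO, mostly from Cd68, a lysosomal protein (19.7 ± 3.06 to 41.8 ± 3.45 CPM). The part of these cell types in the rise was not tested.

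**Figure D2:**
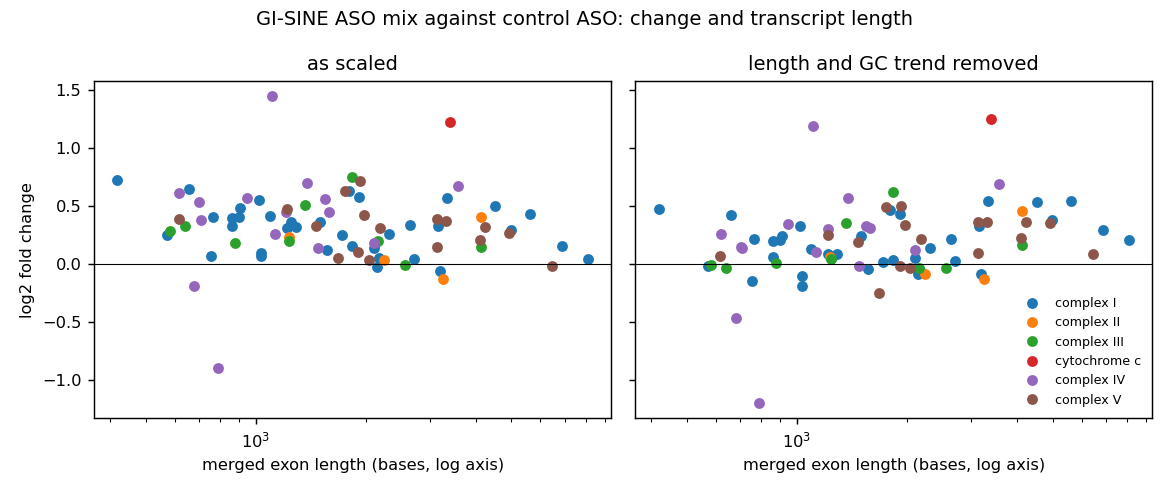
Log2 fold change with the mix against the control ASO (y axis) against merged exon length in bases (x axis, log scale) for the tested subunit genes, coloured by complex, as scaled (left) and after each library's length and GC trend was removed (right). The median goes from 0.32 on the left to 0.18 on the right, and Cycs and Cox6b2 stay the highest in both.

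Letters of known regulatory motifs were searched around the starts of the subunit genes. Of the 87 genes, 70 matched an entry of the RefSeq promoter table (build GRCm38.p6), which holds the stretch from 250 bases before to 50 after the start. The NRF1 motif, searched as GCGCANGCG on both strands, was present in 30% of the matched subunit genes (21 genes) against 7.03% of the 27025 genes in the table. The ETS motif of GABP (CCGGAAG) was present in 22.9% against 9.93%, YY1 (AAGATGGCG) in 10% against 1.64%, CREB (TGACGTCA) in 7.14% against 2.03%, and Sp1 (GGGCGG) in 42.9% against 38.2%. The letters lay only after the start in 6 of the 7 genes with YY1 letters and in 4 of the 21 with NRF1 letters. The table was not limited to protein-coding or tested genes, so its shares are not those of a matched background. A match is a description of letters and not a binding site. The median log2 fold change with the mix was 0.32 for the 21 genes with NRF1 letters, of which 17 rose, and 0.33 for the 46 tested genes without them, of which 36 rose. Shown are the 250 bases before the start of 4 genes that rose with the mix and hold the NRF1 letters there. They are Cycs at chr6:50566570-50566819 on the minus strand, Cox6a1 at chr5:115348959-115349208 on the minus strand, Ndufa11 at chr17:56717512-56717761 on the plus strand and Sdha at chr13:74350241-74350490 on the minus strand. The call for Ndufa11 was lost once the length and GC trend was removed. Capitals mark NRF1 letters in all 4, CREB letters (TGACGTCA) in Cycs and Ndufa11, and ETS letters nearest the start in Cox6a1. Sp1 letters are left in lower case.
Cycs: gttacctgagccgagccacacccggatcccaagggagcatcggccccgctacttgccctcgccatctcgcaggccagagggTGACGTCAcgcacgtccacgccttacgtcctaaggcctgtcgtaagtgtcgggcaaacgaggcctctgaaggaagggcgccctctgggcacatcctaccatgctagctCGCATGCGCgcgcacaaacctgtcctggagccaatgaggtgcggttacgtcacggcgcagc
Cox6a1: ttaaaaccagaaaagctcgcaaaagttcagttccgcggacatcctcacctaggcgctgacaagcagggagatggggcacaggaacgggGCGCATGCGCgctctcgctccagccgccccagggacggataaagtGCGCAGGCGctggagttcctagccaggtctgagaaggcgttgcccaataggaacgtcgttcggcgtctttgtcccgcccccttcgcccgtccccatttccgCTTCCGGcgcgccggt
Ndufa11: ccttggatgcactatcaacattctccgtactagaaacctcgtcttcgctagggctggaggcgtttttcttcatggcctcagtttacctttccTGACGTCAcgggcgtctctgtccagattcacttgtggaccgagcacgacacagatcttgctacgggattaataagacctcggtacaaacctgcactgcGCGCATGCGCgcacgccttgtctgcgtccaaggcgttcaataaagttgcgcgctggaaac
Sdha: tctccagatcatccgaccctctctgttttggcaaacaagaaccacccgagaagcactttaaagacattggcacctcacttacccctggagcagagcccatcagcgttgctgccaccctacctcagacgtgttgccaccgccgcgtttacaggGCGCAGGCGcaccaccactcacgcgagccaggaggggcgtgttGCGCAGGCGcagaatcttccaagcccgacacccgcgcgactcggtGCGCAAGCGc

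Complex I oxidises NADH, and 26 of its 36 nuclear genes rose with the mix, with a median log2 fold change of 0.32. Ndufa10, an accessory subunit, had the smallest p. Its level was 163, 148, 156 and 129 CPM in the mix libraries of mice 1 to 4, 104, 97.96, 106 and 95.1 CPM with the control ASO, and 98.4, 103, 99.9 and 88.6 CPM untransfected. Every mix library lay above every other library, and the log2 fold change over the control ASO was 0.56 ± 0.05 (SE; edgeR adjusted p = 2.6e-07). Ndufa6, another accessory subunit, stood at 48.0, 45.7, 48.6 and 44.0 CPM with the mix and 28.1 to 32.7 CPM with the control ASO, a log2 fold change of 0.62 ± 0.06 (edgeR adjusted p = 4.75e-07). Ndufa8 rose by a log2 fold change of 0.32 ± 0.06 (edgeR adjusted p = 0.000199), a call that was lost, at 0.06, after the length and GC trend was removed. Of the 7 core subunits encoded in the nucleus, which include those with the flavin and the iron-sulfur centres, 4 rose, and of the 29 accessory subunits 22 rose. This grouping by role was made after the values were seen. Ndufs4, an accessory subunit whose loss causes encephalopathy in mice, did not pass the test at 16.1 to 20.2 CPM with the mix and 16.3 to 18.2 CPM with the control ASO. Ndufv3, a small accessory subunit of the NADH-oxidising arm, was likewise not called, with a log2 fold change of -0.06 ± 0.06.

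Complex II oxidises succinate and has no subunit encoded in mitochondrial DNA. Of its 4 genes, 2 rose. Sdha, the catalytic flavoprotein whose upstream letters are shown above, stood at 200.3, 189.8, 205.9 and 183.0 CPM with the mix against 139 to 154 CPM with the control ASO. The groups did not overlap, and the log2 fold change was 0.40 ± 0.05 (edgeR adjusted p = 3.77e-06). Sdhd, a membrane anchor, rose from 48.1 ± 2.90 to 56.1 ± 0.647 CPM (mean ± SD, n = 4 libraries; edgeR adjusted p = 0.0039). The other two genes did not pass the test. Sdhb, the iron-sulfur subunit, had a log2 fold change of 0.03 ± 0.05, and Sdhc, the other anchor, one of -0.13 ± 0.07 (edgeR adjusted p = 0.103). After the length and GC trend was removed, the call for Sdhd was lost, at 0.05, while Sdha stood at 0.45. Scaled by library size only, Sdhd was not called, at 0.10, and Sdhc was called lower, at -0.26.

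Complex III carries electrons from ubiquinol to cytochrome c, and 7 of its 9 nuclear genes rose, with a median log2 fold change of 0.19. The largest change was that of Uqcrq, a small subunit that contacts cytochrome b. It stood at 70.0, 68.9, 73.2 and 62.4 CPM with the mix and at 37.6, 43.7, 39.9 and 43.2 CPM with the control ASO. The mix libraries were all above the control ASO and untransfected libraries, and the log2 fold change was 0.75 ± 0.07 (edgeR adjusted p = 1.73e-07). Cyc1, cytochrome c1, moved less, from 78.3 ± 2.47 to 89.5 ± 2.94 CPM, a log2 fold change of 0.19 ± 0.05 (edgeR adjusted p = 0.00575). After the length and GC trend was removed, the value for Cyc1 was -0.04 and it was not called.

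Cytochrome c, the soluble carrier between complexes III and IV that also triggers caspase activation once released, showed the second largest log2 fold change of the tested subunit genes. Cycs stood at 13.1, 12.6, 13.3 and 6.76 CPM in the mix libraries of mice 1 to 4, at 4.35, 4.97, 4.80 and 5.50 CPM with the control ASO, and at 4.49, 5.17, 4.08 and 4.71 CPM untransfected. The mix library of mouse 4 was well below the other mix libraries, but above every control ASO library. The log2 fold change was 1.23 ± 0.17 (edgeR adjusted p = 2.09e-05), and it was 1.48 without mouse 4. Within mice the log2 difference was 1.57, 1.33, 1.46 and 0.29.

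Complex IV reduces oxygen, and 12 of its 15 tested nuclear genes rose, with a median log2 fold change of 0.44. Ndufa4, once assigned to complex I and now counted to complex IV, stood at 139, 121, 136 and 108 CPM with the mix, against 79.2, 79.9, 78.7 and 73.6 CPM with the control ASO. All mix libraries lay above all others, with a log2 fold change of 0.69 ± 0.06 (edgeR adjusted p = 8.96e-08). Cox8a stood at 166, 154, 167 and 133 CPM with the mix and 95.8 to 105 CPM with the control ASO (log2 fold change 0.61 ± 0.06; edgeR adjusted p = 1.23e-07). Cox6a1, whose upstream letters are shown above, stood at 187, 198, 203 and 170 CPM with the mix and 127 to 137 CPM with the control ASO (0.53 ± 0.05; edgeR adjusted p = 3.06e-07). Neither gene's groups overlapped. With the length and GC trend removed both were still called, with smaller log2 fold changes of 0.26 for Cox8a and 0.14 for Cox6a1, and Ndufa4 stood at 0.56.

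Within the isoform pairs of complex IV, the abundant member was called higher in each. Cox4i1 had a log2 fold change of 0.55 ± 0.06, Cox6b1 of 0.37 ± 0.06 and Cox7a2 of 0.57 ± 0.09, and these were 0.32, 0.14 and 0.34, all still called, once the length and GC trend was taken out. Cox7a2l, a relative of Cox7a2, had a smaller value of 0.14 ± 0.05 (edgeR adjusted p = 0.0326). It became -0.02 and was not called after the length and GC trend was removed. The scarce members differed from one another. Cox6b2 was called, at 0.700, 1.93, 1.12 and 1.34 CPM with the mix and 0.355 to 0.556 CPM with the control ASO (log2 fold change 1.44 ± 0.39; edgeR adjusted p = 0.00412). Its counts were few, and it was not tested under the stricter filter. Cox4i2 stood at 0.250 to 0.609 CPM with the mix and 0.533 to 0.989 CPM with the control ASO and missed the threshold (log2 fold change -0.90 ± 0.38; edgeR adjusted p = 0.0513), though it was called lower when scaled by library size only or with the trend removed. Cox6a2 had a value of -0.19 ± 0.31 and was not called.

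Complex V makes ATP, and 13 of its 17 genes rose, with a median log2 fold change of 0.32. Atp5d, the delta subunit of the rotating stalk, had the smallest p of all subunit genes. It stood at 316, 314, 302 and 243 CPM with the mix, at 180, 179, 187 and 169 CPM with the control ASO and at 185, 181, 181 and 163 CPM untransfected. The mix libraries, mouse 4 included, lay above every other library (log2 fold change 0.71 ± 0.05; edgeR adjusted p = 2.62e-08). Atp5b stood at 1051, 1032, 1055 and 934 CPM with the mix against 782 to 855 CPM with the control ASO (0.32 ± 0.04; edgeR adjusted p = 6.6e-06). Of the 5 subunits of the F1 head and its stalk, 4 rose, and all 4 stator subunits rose. Exons of 30 subunit genes overlap another annotated gene on either strand. The largest overlap is that of the stator gene Atp5o, over 47.9% of its exon length and 12.3% on the same strand. Among the genes that overlap Atp5o is another annotated entry with the same symbol. The strand mode of counting is not given, so the level of Atp5o is uncertain. Of the c ring genes, Atp5g1 and Atp5g3 rose, with log2 fold changes of 0.27 ± 0.07 and 0.31 ± 0.05, and the scarce Atp5g2 had a value of 0.05 ± 0.30.

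The summed level of all subunit genes was 4987 ± 119 CPM untransfected, 5089 ± 97.8 CPM with the control ASO and 6388 ± 393 CPM with the mix (mean ± SD, n = 4 libraries each). All 4 mix libraries lay above all other libraries for each of complexes I to V. The ratio of the mean summed level with the mix to that with the control ASO was 1.22 for complex I, 1.16 for complex II, 1.19 for complex III, 1.40 for complex IV and 1.24 for complex V. These ratios are descriptions, and the differences among complexes were not tested. With the length and GC trend removed, the median log2 fold changes of the complexes were 0.17 for complex I, -0.02 for complex II, 0.01 for complex III, 0.26 for complex IV and 0.22 for complex V, so that complexes II and III lay near 0.

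**Figure D3:**
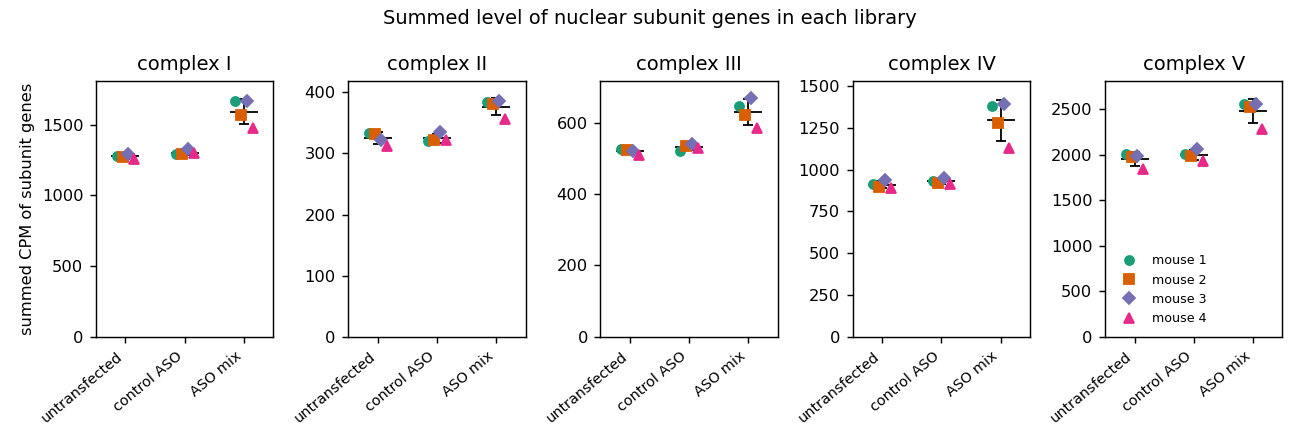
Summed CPM of the subunit genes of each complex (y axis, from 0) in each library, by condition and mouse; horizontal bars are group means and error bars the SD over 4 libraries. In each complex the mix libraries lie above the others, and for complex IV the mix libraries run from 1130 to 1393 CPM against 916.1 to 950.5 CPM with the control ASO.

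The control ASO against no transfection asks what transfection with an ASO changed. Here 3 subunit genes were called higher and 3 lower, where the background was 10.5% of all tested genes higher and 13.7% lower. The median log2 fold change was 0.04 for the subunit genes and 0.03 for all tested genes. Ndufa8 rose from 34.6 ± 1.92 to 41.1 ± 1.48 CPM (log2 fold change 0.25 ± 0.06; edgeR adjusted p = 0.00608), Ndufv3 from 42.4 ± 1.85 to 50.1 ± 0.703 CPM (0.24 ± 0.06) and Atp5g1 from 31.9 ± 3.55 to 36.8 ± 0.889 CPM (0.21 ± 0.07). Cox6c, a small complex IV subunit, fell, from 35.1, 35.1, 39.2 and 40.5 CPM to 30.5, 29.7, 30.0 and 30.3 CPM in mice 1 to 4, without overlap (log2 fold change -0.32 ± 0.08; edgeR adjusted p = 0.0109). Ndufs4 fell from 20.99 ± 0.552 to 17.5 ± 0.866 CPM and Ndufa6 from 34.4 ± 1.36 to 30.3 ± 2.04 CPM. Most of these 6 calls depended on single mice: leaving out 1 mouse at a time gave 1 to 3 higher and 1 to 4 lower, and Cox6c was the call that held in each. Without mouse 2, Ndufa8, Ndufv3, Ndufs4 and Ndufa6 were no longer called, and without mouse 1 neither were Atp5g1, Ndufs4 and Ndufa6. Atp5g1 was also lost without mouse 3 or mouse 4, and Ndufa6 without mouse 3. Markers of some other cell types differed far more in this comparison. Called lower were 9 of 13 Schwann cell, 7 of 10 fibroblast and 4 of 8 mural cell markers, with none higher. Of 10 satellite glia markers 1 was called higher and 6 lower. Of 9 endothelial markers 1 was called higher and 1 lower, of 10 macrophage markers 1 and 1, and of 15 pan-neuronal markers 4 and 0. The part of these markers in the 6 calls was not tested.

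The mix against no transfection joins both steps and shares the mix libraries with the first comparison and the untransfected libraries with the second. In it, 63 subunit genes were called higher and 1 lower, where 30.1% of all tested genes were called higher and 31.1% lower. The median log2 fold change was 0.35 against -0.02 for all tested genes. Atp5d had a value of 0.72 ± 0.05 and Ndufa4 of 0.76 ± 0.06. Ndufs4 was the gene called lower, at 18.9, 16.9, 20.2 and 16.1 CPM with the mix against 20.6, 21.8, 20.7 and 20.8 CPM untransfected (log2 fold change -0.22 ± 0.08; edgeR adjusted p = 0.0195), and it was not called without mouse 2 or without mouse 4. Without mouse 4, Sdhc was called lower in its place. After the length and GC trend was removed, 39 subunit genes were called higher and 8 lower, with a median of 0.15. Markers of other cells differed widely here. Of 13 Schwann cell markers 3 were called higher and 10 lower (median log2 fold change -1.79). Of 10 fibroblast markers 1 was called higher and 6 lower (-3.72), and of 8 mural cell markers 1 and 6 (-2.29). Of 15 pan-neuronal markers 9 were called higher and 2 lower (0.30). Their part in the subunit calls was not tested.

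**Figure D4:**
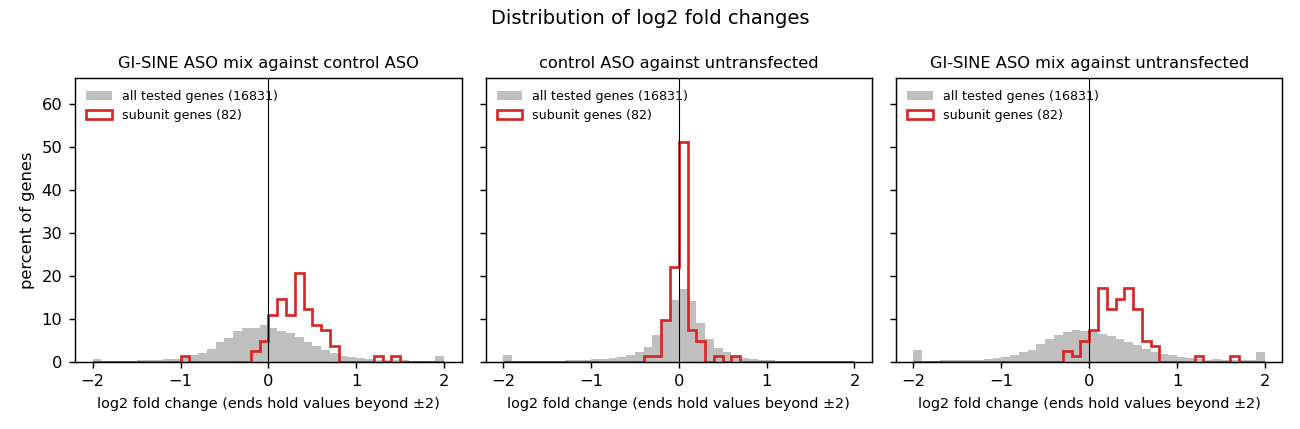
Distribution of log2 fold changes (x axis) as percent of genes (y axis) for all tested genes (grey) and the tested subunit genes (red) in the 3 comparisons. The subunit genes centre at 0.32 and 0.35 in the comparisons with the mix and at 0.04 for the control ASO against untransfected cultures.

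Related lists of mitochondrial genes were counted in the same fit of the mix against the control ASO, where the shares over all genes are the 27.3% higher and 28.8% lower given above. Of the 12 tested subunits encoded in mitochondrial DNA, 3 rose (25%, near the share of all genes) and none fell: mt-Co1 (log2 fold change 0.40 ± 0.08), mt-Co2 (0.42 ± 0.11) and mt-Co3 (0.28 ± 0.10), the core of complex IV. The median of the 12 was 0.28, and within mice 1 to 4 it was 0.44, 0.07, 0.62 and -0.11. Their summed level was 1491 to 2902 CPM with the mix and 1490 to 1990 CPM with the control ASO, with ratios within mice of 1.42, 1.18, 1.51 and 1.00. The call for mt-Co3 was lost both under scaling by library size only and once the length and GC trend was taken out. Of 51 tested assembly factors, which build the complexes without being part of them, 8 rose (15.7%) and 15 fell (29.4%, near the share of all genes), with a median of 0.01. The 3 with the smallest p were all lower. The complex II factor Sdhaf2 had a log2 fold change of -0.57 ± 0.08, the ATP synthase factor Tmem70 of -0.67 ± 0.10, and Taco1, an activator of COX1 translation, of -0.58 ± 0.09. Bcs1l, a factor for the Rieske protein of complex III, had the largest value in the list, a rise of 0.75 ± 0.19, and Pet100, a complex IV factor, rose by 0.58 ± 0.11. Of 17 genes of the tricarboxylic acid cycle, 7 rose (41.2%) and 3 fell (17.6%; median 0.01; 4 and 7 when scaled by library size only), with Idh3b at 0.37 ± 0.05, Ogdh at 0.27 ± 0.05 and Suclg2 at -1.02 ± 0.16. Of 27 import and carrier genes, 12 rose (44.4%) and 5 fell (18.5%; median 0.03), and scaled by library size only 9 rose and 9 fell. Among them were the phosphate carrier Slc25a3 at 0.45 ± 0.05, the import receptor Tomm20 at 0.56 ± 0.08 and the small chaperone Timm9 at -0.85 ± 0.12. Removing the length and GC trend gave a median of 0.09 for the subunits of mitochondrial DNA (2 rose, 0 fell). It gave -0.12 for assembly factors (9 and 19), 0.09 for the tricarboxylic acid cycle (8 and 2) and -0.005 for import and carrier genes (8 and 4). Scaled by library size only, 6 assembly factors rose and 20 fell, with a median of -0.11.

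Of 14 tested regulators of respiratory genes, 2 rose (14.3%) and 7 fell (50%) with the mix, with a median log2 fold change of -0.22. With the length and GC trend removed the counts were 4 and 4 with a median of -0.08, and the calls for Nrf1, Gabpb1 and Gabpb2 were lost. Those that fell were the coactivators Pprc1 (-0.61 ± 0.06; edgeR adjusted p = 6.29e-07) and Ppargc1b (-0.34 ± 0.07), Tfam, which packages mitochondrial DNA (-0.50 ± 0.09), Nrf1 (-0.26 ± 0.10), and the GABP subunits Gabpa (-0.31 ± 0.07), Gabpb1 (-0.33 ± 0.08) and Gabpb2 (-0.34 ± 0.11). Yy1 rose (0.75 ± 0.07; edgeR adjusted p = 1.54e-07), as did the mitochondrial RNA polymerase Polrmt (0.37 ± 0.07). Gabpa and the stator subunit Atp5j overlap at their exons, over 12.7% of the Atp5j exon length and on opposite strands, and moved in opposite directions, Atp5j by 0.38 ± 0.07. How the counting treated strand is not stated in the labels, so whether reads from their overlap were counted for the right gene is not known.

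**Figure D5:**
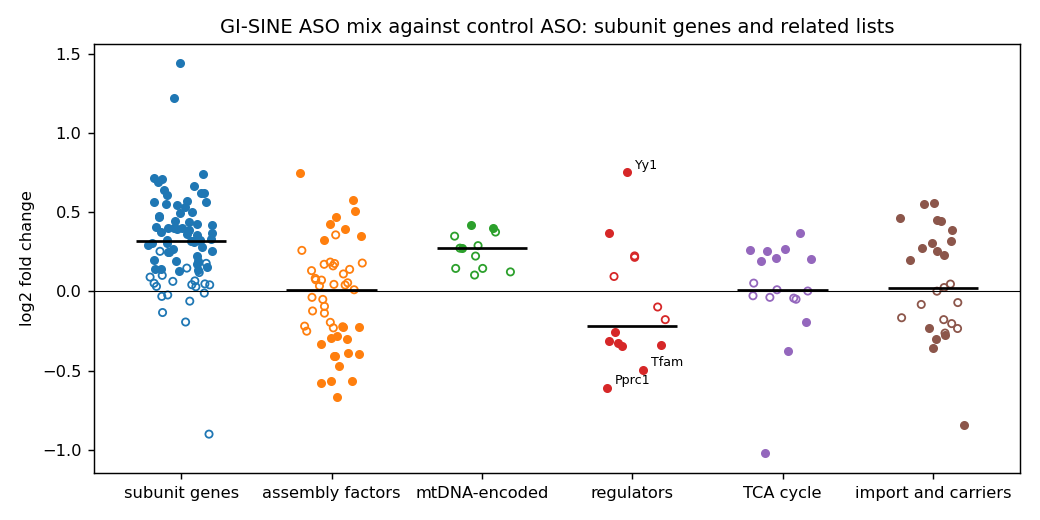
Log2 fold change with the mix against the control ASO (y axis) for the tested subunit genes and 5 related lists (x axis); filled points passed an adjusted p of 0.05 in edgeR, and black bars are medians. As scaled, the median is 0.32 for the subunit genes, 0.28 for genes of mitochondrial DNA, near 0 for assembly factors, the tricarboxylic acid cycle and import genes, and -0.22 for regulators. Removal of the length and GC trend takes the medians of the subunit genes and of the mitochondrial DNA genes to 0.18 and 0.09.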

How the data were processed

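Gene counts of 12 RNA-seq libraries were analysed. Per the labels' protocols, total RNA was purified with RNeasy columns, made into TruSeq Stranded libraries and sequenced in pairs of 150 bases on a NovaSeq S4. The authors deposited raw counts per gene. Per the submitters' processing notes, bcl2fastq 2.17, STAR and HTSeq were used, with builds GRCm38 and mm10. Neither the annotation release nor the strand mode of counting is given in the sources used here. Of 48795 gene IDs, 48435 matched GENCODE mouse release 21 (GRCm38), and the other 360 held at most 0.0308% of a library's counts. Loci that collect ribosomal RNA (Gm23935, Gm42418, Gm26917) held 15.7% to 19.45% of counts.

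edgeR 4.0.16 (R 4.3.3) filtered low counts by group, scaled by trimmed mean of M values and fitted a quasi-likelihood model (robust, with terms for group and mouse) to all 12 libraries and 16831 genes. Tests were two-sided with Benjamini-Hochberg adjustment over all genes. CPM used the scaled library sizes, and RPKM divided CPM by merged exon length. The series design ties each replicate number to 1 mouse; deviations from group means correlated at 0.138 to 0.557 between libraries of a mouse. Within each group every pair of libraries differed beyond counting noise (chi-square per degree of freedom at least 5.26). Copies were sought with BLAST 2.17.0. The model was tested on simulated data.

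The genes and lists were chosen with earlier results of these data known. Named genes were the 6 with the smallest p in each direction and comparison, and those with extreme fold changes or levels. Also named were isoform families, complex II, Cyc1, Cycs, up to 3 of each related list and those left untested. Ndufa11, Ndufb9, Ndufv2, Atp5j, Atp5o, Atp5s, Bcs1l, Pet100, Cd68 and the remaining regulators were named after their values were seen. Alternatives were no replicate block, other scalings (DESeq2 1.42.0 size factors, library size only), DESeq2's Wald test, limma-voom 3.58.1, other filters, fits of 2 groups, removal of length and GC trends, no ribosomal RNA loci, and each mouse left out.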

Additional observations from a re-analysis of the deposited data

Results flagged for a closer look

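In groups of 4 libraries, 8 of 102 sets of values held a library far from the others (Dixon's ratio above its 95% critical value, which chance gives in about 1 of 20 sets). In 3 of them it was the mix library of mouse 4, at the low end: Cycs at 6.76 CPM (the others from 12.6 to 13.3), the summed level of complex II at 355.9 CPM (381.5 to 386.0) and that of complex V at 2282 CPM (2520 to 2562). The mix library of mouse 3 was the highest for Ndufa8, at 54.0 CPM against 50.5 to 50.8 CPM, and for Ndufv3, at 54.1 CPM against 45.6 to 46.5 CPM. The control ASO library of mouse 4 was the highest for the scarce Atp5g2, at 1.67 CPM against 0.884 to 1.01 CPM. The control ASO library of mouse 3 was the highest for the summed level of complex II, at 334.8 CPM against 320.7 to 321.7 CPM. The untransfected library of mouse 4 was the lowest for Sdhb, at 66.5 CPM against 73.9 to 74.9 CPM.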

How the results depend on the processing

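For the mix against the control ASO, the count of subunit genes called higher stayed between 44 and 64 and the median above 0 under every alternative run. Scaling by library size only gave 44 higher and 4 lower (Cox4i2, Ndufv2, Ndufv3, Sdhc) with a median log2 fold change of 0.20, and 34.0% of all called genes were then higher, against 48.7%. Removing the length and GC trend gave 45 higher, of which 43 were among the 61, and 2 lower, with a median of 0.18; Cox7a2l became -0.019 and Cyc1 -0.039. For the mix against untransfected cultures it gave 39 higher and 8 lower in place of 63 and 1, with a median of 0.15, and Cox7a2l at -0.074 and Cyc1 at -0.12; library size only gave 2 lower, and DESeq2's Wald test and the fit of 2 groups gave 0 lower. For the control ASO against untransfected cultures, the counts called lower were 6 with only the 2 groups fitted and 6 with the trend removed, in place of 3; the median was 0.071 with library size only (55.4% of all calls then higher, against 43.5%) and -0.026 with the trend removed (55.7%). The cause of these shifts was not tested.

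Leaving out 1 mouse at a time gave 53 to 64 higher and medians of 0.28 to 0.37 for the mix against the control ASO, and 53 to 65 higher, 0 to 1 lower and medians of 0.30 to 0.38 against untransfected cultures. For the control ASO it gave 1 to 3 higher, 1 to 4 lower and medians of 0.012 to 0.041. Without the replicate block, calls in the 3 comparisons were 56 higher and 0 lower, 2 and 2, and 61 and 1. With the longest transcript as length, Atp5b stood at 412.4 RPKM in place of 186.5. Depth limits the scarce isoforms, such as Cox6b2 and Cox4i2.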
